A study of Mus musculus with 48 samples.

Results

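The circadian clock genes described here were the 10 genes Arntl, Npas2, Clock, Per1, Per2, Per3, Cry1, Nr1d1, Nr1d2 and Dbp, taken by gene symbol from the expression tables of 6 mouse tissues. All 10 were listed in every table and passed the filter on low values in every tissue, out of 15541 genes listed in at least 1 tissue. The study compared male C57Bl6 mice with diet-induced obesity after Roux-en-Y gastric bypass (RYGB group) or sham surgery (sham group). RYGB connects a small pouch of stomach directly to the jejunum, and food then bypasses most of the stomach and the duodenum. Both groups had been fed a high fat diet before surgery and a liquid elemental diet after it, and were killed 9 days after surgery at 10 am after a fast. The labels also name a return to the high fat diet after the liquid diet, without its day. The RYGB and sham groups had 3 and 4 libraries from scraped duodenal villi, 3 and 4 from jejunal villi and 5 and 5 from ileal villi. Liver, subcutaneous white adipose tissue (WAT) and gastrocnemius muscle had 4 and 4 each, which made 48 libraries in all. Weight matching of the sham mice at that day, the limb of the jejunum taken after RYGB, and which libraries of different tissues shared a mouse were not stated in the labels.

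The clock of a mammalian cell is a feedback loop in transcription. ARNTL (BMAL1), paired with CLOCK or its relative NPAS2, activates genes through a DNA element called the E-box. Among these are the PER and CRY repressors, which return to block the activators, and the nuclear receptors NR1D1 and NR1D2 (REV-ERB), which repress Arntl through an element called the RORE. DBP is an output factor that activates genes through an element called the D-box, and its transcript oscillates strongly in liver and other organs. Feeding time, fasting and glucocorticoids are known to set clocks in peripheral tissues. All mice were killed at the same hour, so a shift in the timing of the clock and a change in the mean level of a transcript cannot be told apart in any comparison below.

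The promoter stretches below are shown because they hold the letters of these elements, which is a description of the sequence and not evidence of binding. RefSeq windows from 250 bases before to 50 bases after a start site (GRCm38.p6) were found for 9 of the 10 genes, in 13 windows, with no entry for Per2. Both strands were searched for CACGTG (E-box), TTANGTAA (D-box) and TAGGTCA (RORE), which do not overlap each other. Of 32851 windows of all genes, 7.15% held the E-box, 2.32% the D-box and 2.61% the RORE. Capitals mark the match, and each sequence is read 5′ to 3′ on the gene's strand.

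Per1 (chr11:69098743-69098828, plus strand, E-box starting 166 bases before the start): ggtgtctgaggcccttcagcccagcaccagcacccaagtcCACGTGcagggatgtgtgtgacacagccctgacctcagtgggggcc

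Cry1 (chr10:85185069-85185154, minus strand, E-box starting 60 bases before the start): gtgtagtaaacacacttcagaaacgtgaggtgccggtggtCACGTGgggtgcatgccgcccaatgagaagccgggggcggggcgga

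Per3 (chr4:151044776-151044910, minus strand, D-boxes starting 205 and 158 bases before the start): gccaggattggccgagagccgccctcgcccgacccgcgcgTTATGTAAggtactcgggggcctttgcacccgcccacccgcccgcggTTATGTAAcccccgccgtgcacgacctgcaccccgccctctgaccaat

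Arntl (chr7:113207530-113207559, plus strand, RORE starting 31 bases after the start): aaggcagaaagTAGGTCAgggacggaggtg

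The repressor genes Per1 and Cry1 thus carried the E-box, the repressor gene Per3 carried 2 copies of the D-box, and the activator gene Arntl carried the RORE. A further window of Per1 and one of Arntl held no match. No match was found in the windows of Npas2, Clock, Nr1d1, Nr1d2 and Dbp, which says only that these letters are not there.

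Levels were given as CPM (counts scaled to a common library total, rounded to 0.1 by the authors). The listed genes summed to between 925122 and 998777 CPM, and the depth is unknown. Enterocyte, hepatocyte, adipocyte and skeletal muscle markers were all listed in their own tissues, and the bile acid carrier genes of the ileum, Fabp6 and Slc10a2, were listed in the ileal table, although their sum was only 0.2 to 25.4 CPM in the sham libraries and 1.7 to 101.1 CPM in the RYGB libraries. In the duodenum Cela1, the one acinar marker of 4 that was listed, ranged from 5.9 to 4817.2 CPM. In the ileum no sequencing lane held both groups, so surgery and lane cannot be told apart there. Within a tissue the RYGB group was set against the sham group by limma on log2(CPM + 1), and a gene was called where its Benjamini-Hochberg adjusted p over all genes of the tissue was under 0.05 and its fold change was at least 1.5. P-values measure the spread between these libraries, for which the labels did not state separate animals. Fold changes are on the log2(CPM + 1) scale, which understates the change of genes with low values.

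**Figure D1:**
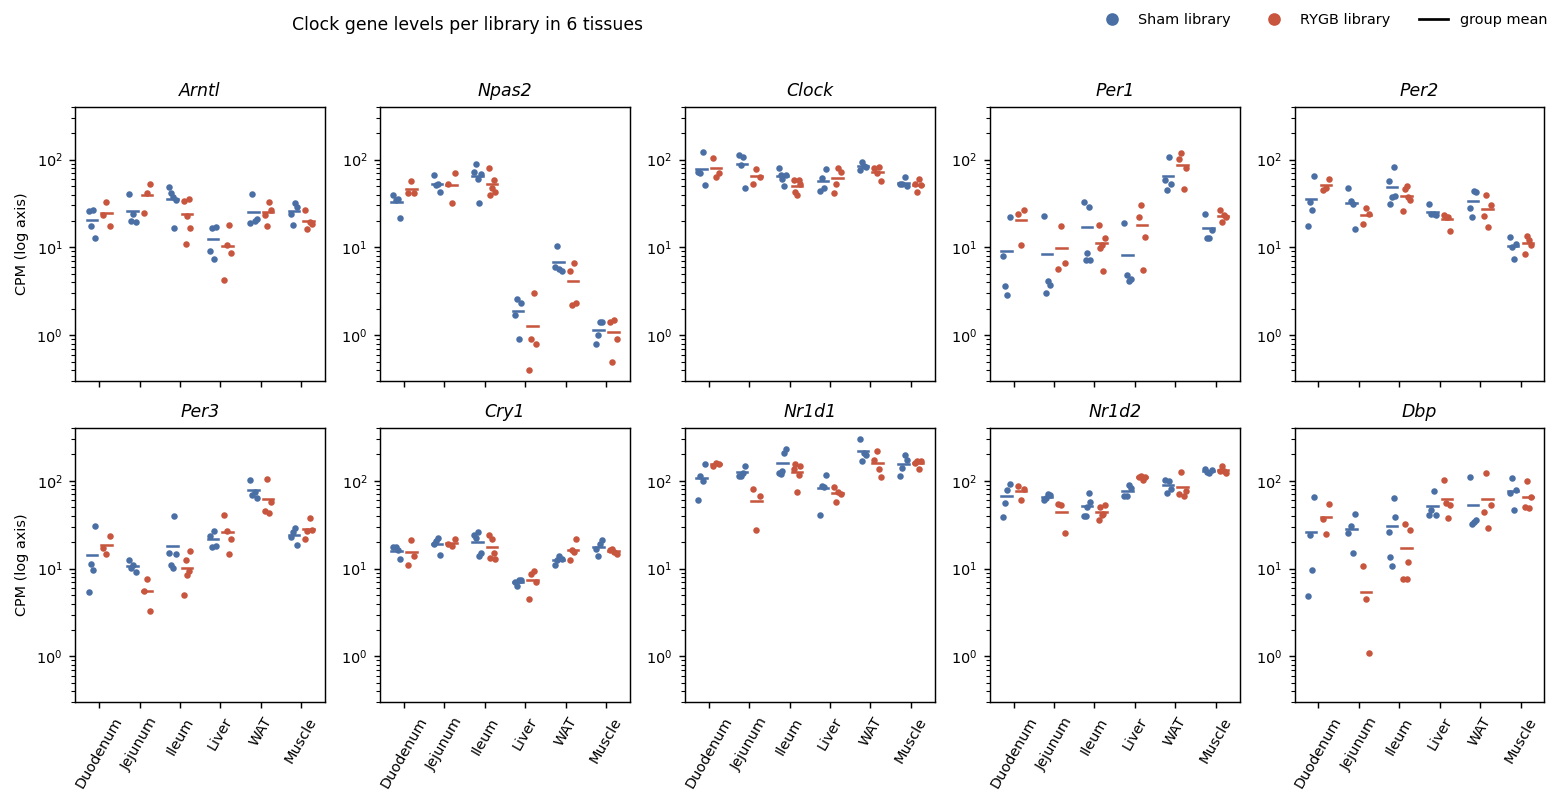
Each panel is 1 clock gene, each point 1 library, and each horizontal bar the mean of a group, with CPM on a log axis against tissue (sham in blue, RYGB in red). Npas2 separated the tissues most, from 1.15 CPM in sham muscle to 64.2 CPM in sham ileum, and in the jejunum the RYGB libraries lay below every sham library for Dbp, Nr1d1, Nr1d2 and Per3.

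In the sham group the clock genes were expressed in all tissues, with orders that differed from gene to gene. The tables were normalized separately, so levels between tissues are a description with no test. Npas2, the relative of CLOCK, ranged 55.8-fold over the tissue means, with 21.8 to 88.0 CPM in the sham libraries of the 3 intestinal segments, 5.4 to 10.3 in WAT, 0.9 to 2.6 in liver and 0.8 to 1.4 in muscle. In the order of its sham means (muscle, liver, WAT, duodenum, jejunum, ileum), the sham ranges of neighbouring tissues overlapped for muscle and liver and for jejunum and ileum, and not for the other neighbours. Clock itself varied least, by 1.62-fold, from 54.4 ± 5.9 CPM (SD, n = 4) in muscle to 88.3 ± 29.7 (n = 4) in the jejunum, and these sham ranges overlapped. Arntl ranged 2.85-fold, from 12.6 ± 5.1 CPM (n = 4) in liver to 35.9 ± 12.1 (n = 5) in the ileum. The 3 Per repressors differed in their tissues: Per1 was highest in WAT (65.7 ± 27.7 CPM, against 8.1 ± 7.3 in liver), Per3 also in WAT (78.1 ± 17.5, against 10.8 ± 1.4 in jejunum) and Per2 in the ileum (49.3 ± 20.5, n = 5, against 10.4 ± 2.4 in muscle). For Per3 the lowest sham library of WAT, 64.3 CPM, lay above every sham library of the other 5 tissues, which reached 39.5 CPM. For Per1 the lowest sham library of WAT, 45.3 CPM, lay above the highest elsewhere, 33.2 CPM in the ileum.

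Cry1, the partner of the PER repressors, ranged from 7.1 ± 0.5 CPM in sham liver to 20.3 ± 5.5 (n = 5) in sham ileum. The nuclear receptor genes Nr1d1 (82.3 ± 30.7 in liver to 216.7 ± 56.9 in WAT) and Nr1d2 (52.2 ± 14.1, n = 5, in ileum to 130.2 ± 5.9 in muscle) ranged 2.63-fold and 2.49-fold. Dbp ranged from 25.9 ± 27.2 CPM in sham duodenum to 76.5 ± 24.8 in sham muscle, and these ranges overlapped. Between genes, levels were compared per kilobase of exon. Nr1d1 had the highest level of the 10 genes in each of the 6 sham groups, from 26.8 CPM per kilobase in liver to 70.4 in WAT. The lowest was Per3 in the 3 intestinal segments, between 1.12 and 1.89 CPM per kilobase, and Npas2 in liver, WAT and muscle, between 0.24 and 1.43.

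In the jejunum the RYGB group had less Dbp and Nr1d1 than the sham group. Dbp, the output factor, stood at 10.6, 4.5 and 1.1 CPM in the 3 RYGB libraries and at 25.4, 30.4, 15.1 and 42.0 CPM in the 4 sham libraries. Every RYGB library lay below every sham library. The means were 5.4 ± 4.8 and 28.2 ± 11.2 CPM, and the log2 fold change was -2.43 (SE 0.52, 95% interval -3.58 to -1.27, limma adjusted p = 0.0184). Nr1d1, the REV-ERBα receptor that represses Arntl, stood at 80.5, 27.3 and 67.5 CPM after RYGB and at 112.7, 114.8, 123.3 and 148.5 CPM after sham surgery. Its groups did not overlap either, with means of 58.4 ± 27.7 and 124.8 ± 16.4 CPM and a log2 fold change of -1.21 (SE 0.32, interval -1.93 to -0.49, limma adjusted p = 0.043). In this bulk tissue fewer cells of a type and less RNA per cell cannot be told apart.

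Both calls depended on single libraries. RYGB replicate 2 was the one jejunal library on another lane, and without it, which leaves a single lane, the log2 fold change was -2.48 for Dbp (limma adjusted p = 0.0548) and -0.74 for Nr1d1 (0.0764). Without sham replicate 4 it was -2.21 for Dbp (0.0565) and -1.12 for Nr1d1 (0.0998). The call of Nr1d1 was also lost without RYGB replicate 3 or sham replicates 1, 2 or 3, with adjusted p between 0.0593 and 0.0908.

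Of the 10 clock genes, 2 were called lower and 0 higher in the jejunum, where 5.13% of all 10854 genes tested were called lower and 9.75% were called in either direction. The groups did not overlap for 4 of the 10, all lower after RYGB, against 12.5% of all genes in that direction. The other 2 of these 4 were Per3 and Nr1d2, and neither was called. Per3, a PER repressor, stood at 5.6, 7.6 and 3.3 CPM after RYGB and at 12.6, 10.3, 11 and 9.2 CPM after sham surgery, with a log2 fold change of -0.91 (SE 0.26, limma adjusted p = 0.0533). It was called without RYGB replicate 2 (-1.14, adjusted p = 0.0429). Nr1d2, the REV-ERBβ receptor, stood at 54.8, 53.3 and 25.5 CPM against 60.4, 63.1, 70.1 and 69.6 CPM, with a log2 fold change of -0.63 (SE 0.26, limma adjusted p = 0.164).

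The activator Arntl leaned the other way in the jejunum without a call. It stood at 24.4, 41.4 and 53.3 CPM after RYGB and at 40.3, 20.1, 24.0 and 19.3 CPM after sham surgery, so the groups overlapped, and its log2 fold change was 0.59 (SE 0.31, interval -0.11 to 1.29, limma adjusted p = 0.287). The remaining 5 genes, Npas2, Clock, Per1, Per2 and Cry1, had log2 fold changes between -0.38 and 0.51, none of them called. The median over the 10 genes was -0.37, with 7 negative, against a median of -0.04 over all genes of the jejunum.

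**Figure D2:**
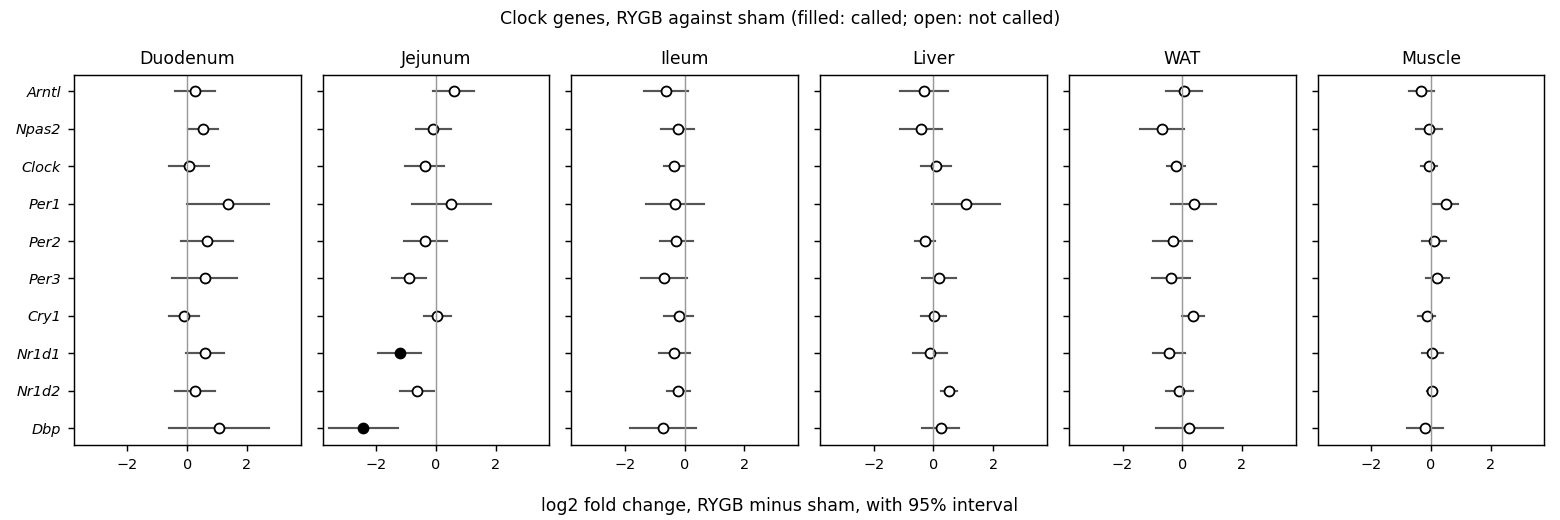
Points give the log2 fold change of RYGB minus sham on the log2(CPM + 1) scale, and lines its 95% interval from limma, for the 10 clock genes in each tissue. The filled points, which mark called genes, are Dbp at -2.43 and Nr1d1 at -1.21 in the jejunum, and all points of the other 5 tissues are open.

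Because a ratio of genes within a library does not move when that library is rescaled, Arntl was also set against Dbp. In the jejunum log2(Arntl/Dbp) lay between 1.2 and 5.6 in the 3 RYGB libraries and between -1.12 and 0.67 in the 4 sham libraries, with means 3.43 apart and no overlap. In the other 5 tissues the groups overlapped, and the means differed by between -0.88 and 0.14. The ratio restates the change of Dbp together with that of Arntl, which was not called, on another scale and was not tested. Log2(Arntl/Nr1d1) lay between -1.72 and 0.60 after RYGB and between -2.94 and -1.48 after sham surgery in the jejunum, which overlapped.

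**Figure D3:**
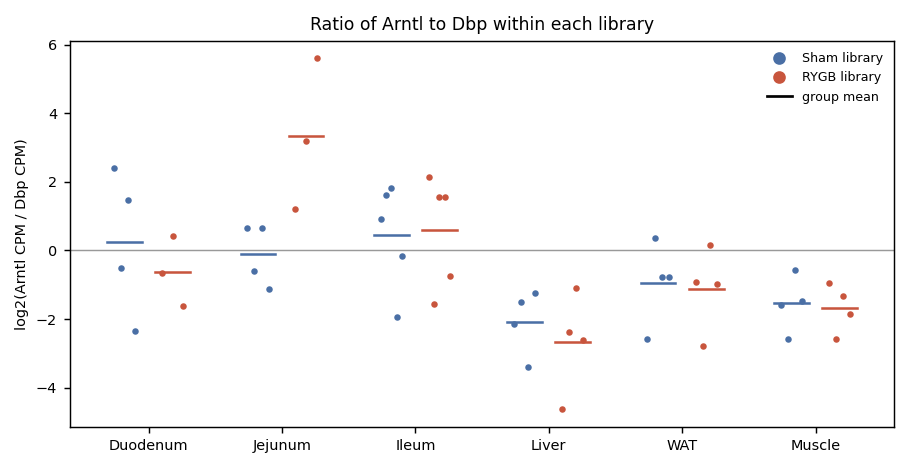
Each point is the log2 ratio of Arntl CPM to Dbp CPM in 1 library, and bars are group means, by tissue (sham in blue, RYGB in red). The jejunal RYGB libraries lie between 1.2 and 5.6 and the jejunal sham libraries between -1.12 and 0.67, while the groups of the other 5 tissues overlap.

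Some of the exon bases of 2 clock genes also belong to a neighbour on the opposite strand. Nr1d1 (chr11:98767932-98775333) shares 263 exon bases, 8.55% of its exon length, with Thra, a thyroid hormone receptor gene. Dbp (chr7:45705088-45710203) shares 539 bases, 18.0%, with Sphk2, a sphingosine kinase gene. The library kit keeps the strand, but the strand setting of the counting was not given in the sources used here, so reads of these stretches may be shared. In the jejunum Sphk2 stood between 45.3 and 101.6 CPM after RYGB and between 129.3 and 181.6 CPM after sham surgery (log2 fold change -0.96, limma adjusted p = 0.0545). Thra stood between 62.6 and 78.8 CPM and between 86.4 and 97.2 CPM (-0.40, limma adjusted p = 0.144). Both neighbours were thus lower after RYGB with no overlap and without a call, and their part in the values of Dbp and Nr1d1 was not tested. Camta1, a transcription activator gene, overlaps the Per3 locus on the same strand. It stood at 1.9 to 2.6 CPM over the 7 jejunal libraries, and in muscle at 26.1 to 45.9 CPM after RYGB against 14.8 to 21.9 CPM after sham surgery (log2 fold change 0.85, limma adjusted p = 0.112).

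Other genes of the clock were counted from a list of 18. In the jejunum 12 of the 18 were tested, of which 3 were called lower and 0 higher. Of all 10854 genes tested there 5.13% were called lower. Cry2, the second cryptochrome repressor, stood at 4.4, 3.7 and 4.7 CPM after RYGB and at 16.1, 8.4, 13.3 and 12.2 CPM after sham surgery (log2 fold change -1.33, SE 0.24, limma adjusted p = 0.00821). Tef and Hlf are the relatives of Dbp that bind the same D-box. Tef stood at 28.5, 28.7 and 16.0 CPM against 64.8, 55.0, 43.9 and 57.9 CPM (-1.18, SE 0.24, limma adjusted p = 0.0144). Hlf stood at 1.2, 1.7 and 2.6 CPM against 6.0, 7.2, 5.0 and 3.2 CPM (-1.15, SE 0.28, limma adjusted p = 0.03). Dbp and its 2 relatives, the family that activates D-boxes, were therefore all called lower in the jejunum. The calls of Cry2 and Tef remained in all alternatives run, with adjusted p up to 0.0374 and 0.0409, whereas that of Hlf was lost in 6 of 13. Leaving out any 1 of RYGB replicates 1 and 2 and sham replicates 1, 2 and 3 gave Hlf adjusted p between 0.0632 and 0.097. The median log2 fold change of the 12 was -0.50.

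**Figure D4:**
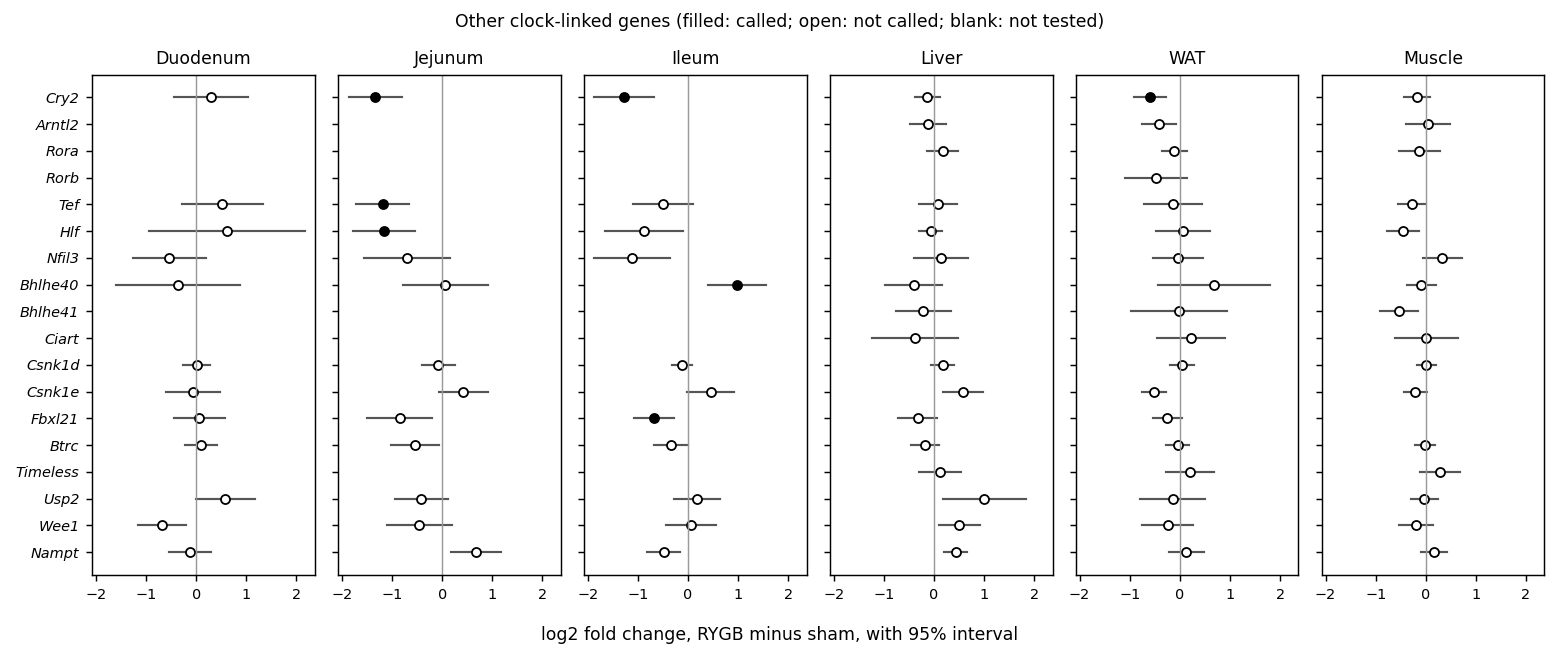
Points give the log2 fold change of RYGB minus sham and lines its 95% interval from limma for 18 other clock-linked genes, with filled points for called genes and blanks for genes that were not tested in a tissue. Cry2 is filled in the jejunum (-1.33), the ileum (-1.28) and WAT (-0.60), and so are Tef (-1.18) and Hlf (-1.15) in the jejunum and Fbxl21 (-0.68) and Bhlhe40 (0.98) in the ileum, the last being the 1 filled point above 0.

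Genes of other lists were also called in the same jejunal libraries, where 9.75% of all genes tested were called in either direction. Among fasting-induced genes, 2 of 5 tested were called lower and 0 higher: Pdk4, which limits glucose oxidation (3.3 against 93.4 CPM on average, log2 fold change -4.52), and Pck1 of gluconeogenesis (7.03 against 170.5 CPM, -4.48), with limma adjusted p of 0.000414 and 0.000862. Of glucocorticoid-induced genes, 1 of 7 tested was called higher (Ddit4, 30.4 against 7.03 CPM, log2 fold change 1.94, limma adjusted p = 0.00373) and 0 lower. Among immediate early genes, which respond to acute stimuli, 1 of 6 was called lower (Jun, log2 fold change -0.78, limma adjusted p = 0.0479). Of 6 T cell markers 4 were listed, with Cd2 and Cd5 not listed. All 4 were called lower, and their sum lay between 4.5 and 9.2 CPM after RYGB and between 20.4 and 36.8 CPM after sham surgery. The 5 enterocyte markers, none of them called, summed to between 25318.1 and 32060.7 CPM and between 29985.0 and 42292.7 CPM. They did not move as 1: log2 fold changes were negative for 3 and positive for 2. The 2 positive ones were higher without overlap after RYGB, and the share of all genes in that direction is not reported here. Of the 5 markers 0 were lower without overlap, against 12.5% of all genes. The part of these groups in the clock gene values was not tested.

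In the duodenum, which food no longer reaches after RYGB, 9 of the 10 clock genes had positive log2 fold changes with a median of 0.55, against 0.12 over all genes, and 0 were called by limma. After scaling the libraries by their median ratio, which brought the median over all genes to 0.005, 8 of the 10 were positive with a median of 0.43. Only 1 of 10850 genes was called there in either direction (0.00922%), and 1 clock gene against 18.8% of all genes had an unadjusted p under 0.05. That gene was Npas2, at 41.8, 57.0 and 41.4 CPM after RYGB and 39.3, 34.3, 35.6 and 21.8 CPM after sham surgery, with a log2 fold change of 0.52 (SE 0.22, limma adjusted p = 0.255). It was the 1 clock gene without overlap, against 12.7% of all genes higher without overlap. Per1 had the largest fold change, 1.36 (SE 0.60, limma adjusted p = 0.27), at 24.0, 10.7 and 26.4 CPM against 7.9, 3.6, 2.9 and 22.2 CPM. The sham libraries of the duodenum differed widely among themselves: Dbp stood at 4.9, 24.5, 9.6 and 64.7 CPM. Sham replicate 4 had the highest Per1, Per2, Per3, Nr1d1, Nr1d2 and Dbp of its group and the lowest Arntl, Npas2, Clock and Cry1. Without it Per1 (log2 fold change 1.88, limma adjusted p = 0.0371) and Per2 (1.00, adjusted p = 0.0482) were called higher after RYGB, in a fit that called 757 of all 10854 genes tested, so calls appeared across the table and not among the clock genes alone. The 4 listed T cell markers, none of them called, summed to between 21.3 and 51.4 CPM after RYGB and between 6.9 and 24.8 CPM after sham surgery, and their part in these values was not tested. Of the 18 other clock genes 12 were tested and 0 were called by limma, with 1 at an unadjusted p under 0.05.

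In the ileum all 10 clock genes had negative log2 fold changes, from -0.74 (Dbp) to -0.20 (Cry1), with a median of -0.34 against -0.09 over all genes. No lane held both groups there, so surgery and lane cannot be told apart for any ileal value. None was called by limma, against 6.05% of all 10735 genes, and the groups overlapped for all 10, against 9.34% of all genes without overlap. All 10 stayed negative after median-ratio scaling, with a median of -0.23. Dbp stood at 7.6, 32.0, 7.7, 12 and 27.6 CPM after RYGB and at 25.9, 13.7, 10.8, 63.5 and 38.3 CPM after sham surgery (limma adjusted p = 0.378). Clock was the 1 gene with an unadjusted p under 0.05, against 26.5% of all genes, at 50.5 ± 9.0 and 65.2 ± 11 CPM (SD, n = 5 each, log2 fold change -0.36, limma adjusted p = 0.152). Of the other clock genes 2 were called lower and 1 higher among the 12 tested. Cry2 stood at 15, 16.3, 6.1, 6.8 and 14.8 CPM after RYGB and at 25.1, 21.2, 29.6, 39.7 and 26.9 CPM after sham surgery, with no overlap (log2 fold change -1.28, SE 0.27, limma adjusted p = 0.0182). Without sham replicate 3 its adjusted p was 0.0513. Bhlhe40, a repressor that competes at E-boxes, was higher at 129.8 ± 39.7 against 66.0 ± 24.4 CPM (0.98, limma adjusted p = 0.0446), and Fbxl21, an F-box protein gene, was lower at 1.74 ± 0.50 against 3.38 ± 0.77 CPM (-0.68, limma adjusted p = 0.0418). The call of Bhlhe40 was lost without any 1 of RYGB replicates 1, 2 and 3 and sham replicates 2 to 5 (adjusted p from 0.0685 to 0.106), and that of Fbxl21 without any 1 of RYGB replicates 1, 2 and 5 and sham replicates 1, 2, 3 and 5 (0.0518 to 0.102). Cell type markers also differed between the groups. Of 6 T cell markers 3 were listed, and all 3 were called lower. Their sum lay between 2.2 and 9.2 CPM after RYGB and between 11.8 and 31.4 CPM after sham surgery. Of the 2 ileal enterocyte markers 1 was called higher and 0 lower, and of the 5 enterocyte markers 1 higher and 0 lower. The 1 adipocyte marker listed, of 5, was called higher. The part of these cells in the clock gene values was not tested. Of 5 fasting-induced genes tested in the ileum 1 was called higher (Cpt1a, log2 fold change 1.11) and 1 lower (Pck1, -2.13). Of glucocorticoid-induced genes 1 of 7 was called higher (Mt1, 1.83), and of immediate early genes 1 of 6 lower (Jun, -1.05).

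In the liver Nr1d2 was higher after RYGB by a small margin. It stood at 111.5, 115.1, 101.8 and 111.4 CPM after RYGB and at 67.9, 67.6, 90.4 and 82.6 CPM after sham surgery, with no overlap, and its log2 fold change was 0.52 (SE 0.12, limma adjusted p = 0.0251). This is a fold change of 1.43, under the 1.5 that a call needs, so 0 of 10 clock genes were called, against 7.08% of all 11807 genes. At an unadjusted p under 0.05 there was 1 of the 10, against 26.9% of all genes. An adjusted p under 0.05 without the fold rule was reached by 1 of the 10 and by 8.61% of all genes, and the groups did not overlap in the higher direction for 1 of the 10 and 13.4% of all genes. The liver table as a whole leaned higher, with a median over all genes of 0.13, and after scaling the libraries by their median ratio the value of Nr1d2 was 0.37 (limma adjusted p = 0.103). It was higher in each of the 3 lanes, all of which held both groups, and with lane as a covariate the value was 0.58 (limma adjusted p = 0.0194). Leaving out sham replicates 1 or 2 gave adjusted p of 0.0728 and 0.0712, and leaving out RYGB replicates 2 or 3 gave 0.0591 and 0.0532. Without sham replicate 3 it was called (log2 fold change 0.60, adjusted p = 0.0168).

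The other 9 clock genes of the liver had overlapping groups. Per1 stood at 22.2, 30.2, 5.5 and 13.2 CPM after RYGB and at 19.0, 4.9, 4.1 and 4.4 CPM after sham surgery (log2 fold change 1.09, SE 0.52, limma adjusted p = 0.203). The 3 low values of the sham group differed by less than 1 CPM, and sham replicate 1 stood apart from them. Dbp stood at 103.6, 56.0, 37.9 and 53.1 CPM against 40.5, 47.2, 76.9 and 40.7 CPM (0.24, limma adjusted p = 0.617). Arntl stood at 4.2, 10.7, 17.9 and 8.7 CPM against 9.1, 16.8, 7.3 and 17.1 CPM (-0.32, limma adjusted p = 0.605), and the RYGB library with the least Arntl had the most Dbp and the one with the most Arntl the least Dbp. Of the 17 other clock genes tested in the liver 0 were called by limma. At an unadjusted p under 0.05 there were 4 of them, against 26.9% of all genes.

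Genes of 3 other lists were called higher in the same liver libraries, where 7.08% of all genes tested were called in either direction. Among 8 glucocorticoid-induced genes 2 were called higher and 0 lower. They were Fkbp5, a co-chaperone of the glucocorticoid receptor (58.8 against 26.2 CPM, log2 fold change 1.08, limma adjusted p = 0.0189), and the kinase gene Sgk1 (42.0 against 19.2 CPM, 1.05, limma adjusted p = 0.013). Of 7 immediate early genes 3 were called higher (Atf3, 1.79, Nr4a1, 1.60, and Jun) and 0 lower. Of 7 fasting-induced genes 3 were called higher (Fgf21, 2.68, Cpt1a, 0.92, and Ppargc1a, 0.72) and 0 lower. Per1 is also a known glucocorticoid-induced gene. Its liver log2 fold change was 1.09 (SE 0.52) without a call, and a link to these lists was not tested. The summed macrophage markers, all 6 listed, lay between 465.2 and 873.1 CPM after RYGB and between 225.5 and 415.7 CPM after sham surgery. The summed neutrophil markers, all 3 listed, lay between 32.5 and 440.4 CPM and between 10.5 and 16.6 CPM. The part of these groups in the clock gene values was not tested.

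In WAT 0 of the 10 clock genes were called by limma, and 0 had an unadjusted p under 0.05, in a tissue where 24.1% of all 13379 genes were called and 50% had an unadjusted p under 0.05. All 10 had overlapping groups, against 41.2% of all genes without overlap, and their log2 fold changes ran from -0.68 (Npas2) to 0.39 (Per1) with a median of -0.16, against 0.11 over all genes (-0.27 after median-ratio scaling). Npas2 stood at 5.4, 2.2, 6.6 and 2.3 CPM after RYGB and at 6.0, 10.3, 5.7 and 5.4 CPM after sham surgery (limma adjusted p = 0.121). Dbp stood at 44.2, 121.5, 29.4 and 52.6 CPM against 111.3, 32.0, 33.9 and 35.6 CPM (0.23, limma adjusted p = 0.724), with 1 high library in each group. Per3 stood at 45.3, 105.8, 42.6 and 57.6 CPM against 103.5, 69.8, 74.8 and 64.3 CPM (-0.38, limma adjusted p = 0.292). RYGB replicate 2, the library with the high Dbp, also had the highest Per1, Per2, Per3, Nr1d1 and Nr1d2 and the lowest Arntl and Npas2 of its group. Without it Per3 was called lower (-0.66, adjusted p = 0.0314). Of the 18 other clock genes, all tested, Cry2 was called lower (69.2, 78.9, 62.5 and 49.6 against 101.7, 89.5, 99.2 and 100.1 CPM, log2 fold change -0.60, SE 0.14, limma adjusted p = 0.0129) and 0 were called higher. The call of Cry2 was lost in 4 of 15 alternatives, each of which left out 1 library (RYGB replicates 3 or 4 and sham replicates 1 or 4), because its fold came under 1.5. Thra, the neighbour of Nr1d1, was called lower (90.2 ± 21.3 against 136.8 ± 15.7 CPM, log2 fold change -0.62, limma adjusted p = 0.0298), while Nr1d1 itself was not (-0.45, limma adjusted p = 0.158).

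The makeup of WAT differed between the groups. All 6 B cell markers were called higher after RYGB, with sums between 809.0 and 2091.1 CPM against 6.7 to 16.3 CPM, and so were all 6 T cell markers, with sums between 237.1 and 929.5 against 8.9 to 18.1 CPM. The 5 adipocyte markers, of which 1 was called lower, summed to between 2489.6 and 5149.6 CPM against 5636.8 to 6772.7 CPM. Of 5 listed macrophage markers 3 were called lower, with sums between 488.6 and 1089.6 against 1437.6 to 2577.9 CPM, and all 3 endothelial markers were called lower, with sums between 739.7 and 1032.6 against 1232.7 to 2116.4 CPM. Of the immediate early genes 3 of 8 were called lower (Fos, log2 fold change -1.79, Atf3, -1.20, and Jun, -0.92). Of the glucocorticoid-induced genes 2 of 8 were called lower (Mt2, -0.98, and Zbtb16, -0.67) and of the fasting-induced genes 1 of 5 (Angptl4, -1.37). In these lists 0 were called higher, and over all genes of WAT 24.1% were called in either direction. The part of these groups in the clock gene values was not tested.

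In muscle 0 of 11966 genes were called by limma (0%), so the absence of calls among the 10 clock genes stands against a background of none. At an unadjusted p under 0.05 there were 1746 genes, 14.6% of those tested, and 1 of the 10 clock genes. That gene was Per1, at 26.6, 19.7, 23.6 and 21.9 CPM after RYGB and at 24.3, 12.9, 12.9 and 15.8 CPM after sham surgery (log2 fold change 0.49, SE 0.19, limma adjusted p = 0.277). The groups overlapped for all 10, against 7.4% of all genes without overlap. Nr1d2 had the log2 fold change nearest 0 of the 10, at 124.4 to 147.0 CPM after RYGB and 123.4 to 136.4 CPM after sham surgery, with a value of 0.03 (95% interval -0.15 to 0.20). Dbp stood at 50.9, 98.9, 49.1 and 66.4 CPM against 72.0, 107.3, 47.0 and 79.5 CPM (-0.20, limma adjusted p = 0.791). Of the 16 other clock genes tested 0 were called by limma, and 2 had an unadjusted p under 0.05. The fasting-induced, glucocorticoid-induced and immediate early lists had 0 genes called by limma in muscle and in the duodenum. At an unadjusted p under 0.05 they had 2, 2 and 1 in muscle and 1, 1 and 0 in the duodenum. Of all genes 14.6% in muscle and 18.8% in the duodenum had such a p. The 5 skeletal muscle markers, none of them called, summed to between 102491.6 and 139104.3 CPM after RYGB and between 143725.4 and 177397.9 CPM after sham surgery. The 3 listed smooth muscle markers, each higher without overlap after RYGB and none of them called, summed to between 3732.9 and 3995.5 CPM against 2632.3 to 2840.8 CPM. The part of these cells in the clock gene values was not tested.

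Within groups Dbp varied inversely with Arntl from library to library in each of the 6 tissues. Its correlations with Per3, Nr1d1 and Per1 ran from negative to positive over the tissues, and differences between tissues were not tested. Dbp and Per1 were among the genes with the widest spread between replicates. The residual SD of Dbp stood at percentile 98.8 of all genes in the duodenum, 98.2 in the jejunum, 98.8 in the ileum, 95.5 in the liver, 98.4 in WAT and 94.8 in muscle, and that of Per1 between percentiles 82.7 in muscle and 99.6 in the liver. To compare patterns, the mean of each tissue and surgery group was subtracted from log2(CPM + 1), and Pearson's r with Dbp was taken over the 48 libraries for 8724 genes expressed in all 6 tissues. These r values are descriptions, since libraries of a group share a table and may share a mouse or a lane.

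The 5 genes most like Dbp were Tef (r = 0.89), Per3 (0.79), Nr1d2 (0.74), Mpnd (0.67) and Klf15 (0.65), so the first 3 were a relative of Dbp and 2 of the 10 clock genes. The 5 with the lowest r were Atrn (-0.76), Arntl (-0.74), Myo10 (-0.73), Abl2 (-0.67) and Klhl7 (-0.65). The gene most like Arntl was Npas2 (0.78), followed by St5 (0.76), Ankib1 (0.74), Ptpn11 (0.70) and Cd2ap (0.69). Against Dbp the activators were negative (Arntl -0.74, Npas2 -0.65, Clock -0.46) and so was Cry1 (-0.60), and the nuclear receptors and PER repressors were positive (Nr1d2 0.74, Nr1d1 0.53, Per3 0.79, Per2 0.44, Per1 0.27). Within each tissue Dbp and Arntl had an r of -0.91 in the duodenum, -0.70 in the jejunum, -0.77 in the ileum, -0.85 in the liver, -0.67 in WAT and -0.80 in muscle, over 7, 7, 10, 8, 8 and 8 libraries. Dbp with Per3 had a positive r in 5 tissues, between 0.42 in the jejunum and 0.97 in the duodenum, and an r of -0.30 in muscle. With 7 libraries in the jejunum and 8 in muscle these values are imprecise, and their difference was not tested. Dbp with Nr1d1 ranged from -0.19 in muscle, 0.13 in the jejunum and 0.24 in the liver to 0.75 in the ileum, 0.79 in WAT and 0.90 in the duodenum. Dbp with Per1 ranged from -0.23 in muscle and -0.08 in the jejunum to 0.60 in the duodenum. Among the 4 duodenal sham libraries the highest Dbp was 13.2-fold the lowest.

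**Figure D5:**
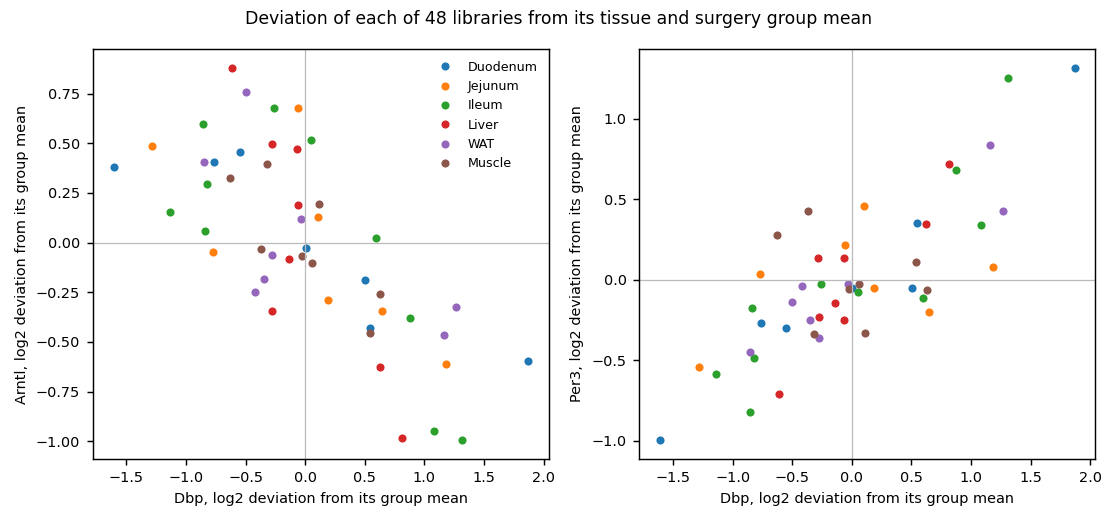
Each point is 1 of 48 libraries, placed by the deviation of Dbp from the mean of its tissue and surgery group on the log2(CPM + 1) scale (horizontal axes) and by the same deviation of Arntl (left) or Per3 (right), colored by tissue. Arntl falls as Dbp rises (r = -0.74) and Per3 rises with it (r = 0.79), while over the muscle libraries alone Dbp and Per3 had an r of -0.30.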

How the data were processed

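mRNA was sequenced from villi of the duodenum, jejunum and ileum and from liver, WAT and muscle of mice after RYGB or sham surgery, 48 libraries in all, with a stranded mRNA kit. The submitters' processing notes name HTSeq and GRCm38, with no version, and the aligner is not given in the sources used here. The deposited values are CPM, 1 table per tissue, rounded by the authors to 0.1. Genes on repeated lines with equal values were kept on 1 line, and 12 damaged lines of the liver table, 0 of them of a clock gene, were left out. The rounding leaves genes near 1 CPM imprecise, and no counts or intervals that need depth were derived.

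Genes whose mean reached 1 CPM were tested on log2(CPM + 1) with limma 3.58.1 (trend, R 4.3.3) within a tissue, with Benjamini-Hochberg adjustment over all its genes. Tables used pandas 2.3.3 and numpy 2.4.6 under Python 3.11.15. The fit was tested on simulated data. Exon lengths and overlaps came from GENCODE M21 on GRCm38, and promoters from RefSeq on GRCm38.p6. Groups and replicate numbers came from the labels, and lanes from the library names in the labels. Alternatives were the pseudocount (0.1), the CPM minimum (none, 10), median-ratio scaling, lane, the replicate block, the call rule and leaving out each library. The 10 clock genes were all named, other clock genes where called, up to 4 called genes of the other lists, and the 5 most and least similar genes. The members and lists were chosen with earlier results of these data known. Some genes of the lists are not reported here.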

Additional observations from a re-analysis of the deposited data

Results flagged for a closer look

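Among 100 combinations of a clock gene and a group of 4 or 5 libraries, 8 held a library far from the others by Dixon's gap. The gap is the distance to the nearest library as a share of the range, on the log2 scale. Chance would give about 5 if the combinations were independent, but clock genes vary together within a library, so the 2 counts cannot be weighed against each other. In the jejunum, Per1 of sham replicate 1 was 22.5 CPM against 3.0 to 4.1 in the others (gap 0.863). In the ileum, Per3 of sham replicate 4 was 39.5 CPM against 10.3 to 15.1 (0.723). In the liver, sham replicate 1 stood apart for Per1 (19.0 against 4.1 to 4.9 CPM, 0.893) and Per2 (30.9 against 23.1 to 23.9 CPM, 0.884), and RYGB replicate 4 for Per2 (15.5 against 22.2 to 23.3 CPM, 0.88). In WAT, sham replicate 2 stood apart for Arntl (40.9 against 18.8 to 20.8 CPM, 0.872) and Npas2 (10.3 against 5.4 to 6.0 CPM, 0.842), and sham replicate 1 for Dbp (111.3 against 32.0 to 35.6 CPM, 0.915).

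Nr1d2 was higher without overlap after RYGB in the liver and lower without overlap in the jejunum, with log2 fold changes of 0.52 and -0.63, which differ by 1.14. The difference between the tissues was not tested.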

How the results depend on the processing

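The number of clock genes called stayed at 0 in the ileum and muscle under every alternative run. Of all genes, these alternatives called between 312 and 856 in the ileum and between 0 and 210 in muscle. In the jejunum the number of clock genes called was 2, against 1 after median-ratio scaling (Dbp) and 1 with lane as a covariate (Per3). It was between 0 and 2 there when 1 library was left out. In the duodenum it was between 0 and 2 when 1 library was left out, in the liver between 0 and 1, and in WAT between 0 and 1. The same fits called between 462 and 1015 of all genes in the jejunum, 0 and 757 in the duodenum, 329 and 1204 in the liver, and 2460 and 3765 in WAT. In the liver it was 1 without the rule on fold change (Nr1d2). The jejunal log2 fold change of Dbp lay between -3.02 and -1.79 over 14 alternatives, with limma adjusted p from 0.00241 to 0.0565 and 3 lost calls. That of Nr1d1 lay between -1.51 and -0.74, with limma adjusted p from 0.0215 to 0.0998 and 8 lost calls. These alternatives were not all separate. The lane covariate gave the same values as leaving out RYGB replicate 2 (-2.48 for Dbp and -0.74 for Nr1d1). The replicate block gave the same values as leaving out sham replicate 4 (-2.21 and -1.12), and the lowest adjusted p of Dbp came from that block. Dbp changed sign when 1 library was left out in the liver (-0.034 to 0.446) and in WAT (-0.154 to 0.655), where it was not called. Another 35 combinations of clock gene and tissue, uncalled throughout and with unadjusted p of at least 0.1, were not followed 1 by 1 here, and 18 of them changed sign in some alternative. The deviations of same-numbered libraries within a tissue had correlations from -0.28 to 0.39, and the numbers were not taken as pairs. Libraries with different numbers were not compared, so these correlations cannot show whether the numbers mark pairs. With the replicate block the jejunum had 2 called clock genes and the other tissues 0. Over all genes the block fits called 960 in jejunum, 268 in duodenum and 580 in ileum, against 1058, 1 and 650 without it. They called 1236 in liver, 3328 in WAT and 184 in muscle, against 836, 3231 and 0 without it. Among the other clock genes the ileal calls of Cry2 (-1.28, limma adjusted p = 0.0522), Bhlhe40 (0.98, 0.0542) and Fbxl21 (-0.68, 0.0679) were lost with the block. Why these calls changed was not tested. Lane could not be fitted in the duodenum, with 1 lane, or the ileum, where no lane held both groups. The depth is unknown, and values near 1 CPM, such as Npas2 in muscle and Hlf in the jejunum, are limited by rounding.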

Other observations

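In the sham groups of all 3 intestinal segments, the library numbered 4 had the highest Dbp and the lowest Arntl. In the duodenum these were 64.7 and 12.8 CPM, against Dbp up to 24.5 and Arntl from 17.3 CPM in the other sham libraries. In the jejunum they were 42.0 and 19.3 CPM, against 30.4 and 20.1 CPM, and in the ileum 63.5 and 16.5 CPM, against 38.3 and 34.4 CPM. In liver, WAT and muscle this pattern did not hold. In the liver, sham replicate 4 had the highest Arntl of its group (17.1 CPM), with Dbp at 40.7 CPM. In WAT and muscle it was neither highest nor lowest for either gene. In the jejunum it had the lowest Per2 (16.3 CPM) and Per3 (9.2 CPM) of its group. In the duodenum and ileum it had the highest of both. The labels do not say whether libraries with the same number came from the same mouse.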
